A study of Mus musculus with 5 samples.

Results

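The genes described here are 42 genes that cells switch on to copy their DNA and to divide. They were fixed by symbol, and all 42 were found once in the gene list of the count matrices. The 18 S members act in DNA replication, and the 24 G2/M members act from late G2 through mitosis. UMI counts (unique molecular identifiers, 1 per captured RNA molecule) were read in 5 libraries of dissociated mouse mammary tissue, made by 3' single-cell RNA sequencing, and summed for each library and marker-gated cell class with the S and G2/M members apart.

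All 5 libraries came from mice that carry Trp53 flox/flox and Krt14cre, a Cre recombinase driven by the Krt14 promoter, which is active in basal epithelium. No library came from mice without floxed Trp53 alleles, and which cells had lost these alleles was not tested. BPK mice are also Brca1 wt/flox, and PK mice are Brca1 wt/wt. The BPK vehicle library (n = 1) came from glands given 12 injections of PBS/PEG into the mammary ducts. The PK 4NQO library (n = 1) and the BPK 4NQO libraries (n = 2) came from glands given 12 injections of 4NQO, a quinoline compound that forms bulky adducts on DNA. The BPK tumor library (n = 1) came from a mammary tumor that formed after 24 injections of 4NQO, so tumor state and number of injections cannot be told apart. The labels do not give the animals behind each library, the age of the mice or whether the 2 BPK 4NQO libraries came from separate mice, so the spread between those 2 may be technical. Values of all 5 libraries are given in the order BPK vehicle, PK 4NQO, BPK 4NQO replicate 1, BPK 4NQO replicate 2 and BPK tumor.

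Cells commit to division when cyclin-dependent kinases release E2F factors from the retinoblastoma protein and its relatives. E2F target genes then build the replication machinery, and a later wave of genes, bound by the MuvB complex with B-MYB and FOXM1, builds the spindle and the mitotic kinases. In resting cells the DREAM complex holds both waves down, and the p53 pathway acts partly through it. The mature mammary epithelium is mostly at rest, and its cells divide in bursts with the hormonal cycle and in pregnancy. The sum of such genes in a tissue sample is therefore widely used as a readout of dividing cells.

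The S members hold the Mcm helicase subunits (Mcm2 to Mcm7), their loaders Cdc6 and Cdt1, the helicase partner Gins2 and the sliding clamp Pcna. They also hold the nucleotide enzymes Rrm1, Rrm2, Tyms and Dut, the cyclins Ccne1 and Ccne2, the methylation maintenance factor Uhrf1 and the histone mRNA binder Slbp. The G2/M members hold the cyclins Ccna2, Ccnb1 and Ccnb2 with their kinase Cdk1, and the kinases Plk1, Aurka and Aurkb. Birc5 and Cdca8 are partners of Aurkb in the chromosomal passenger complex, Bub1 and Bub1b are spindle checkpoint proteins, and Cdc20 and Ube2c drive the destruction of cyclins at anaphase. Cenpa, Cenpe and Cenpf act at the centromere, Kif11, Tpx2, Nusap1, Hmmr and Knstrn at the spindle, and Top2a and Mki67 on chromosomes. Cdca3 promotes entry into mitosis.

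The promoters of the 2 waves differ in how often they hold certain short words, which is counted below. As examples 6 are shown, 2 of S members and 4 of G2/M members. They were picked among named members that hold a searched word, so the stretches themselves do not show how common a word is. The promoters were read from RefSeq promoter windows of build GRCm38.p6, 250 bases before to 50 bases after the start, of which only bases before the start are printed, 5′ to 3′ on the strand of the gene. In the GENCODE gene models used here, Cdk1, Ccnb1 and Ube2c begin inside the stretch shown. Capitals mark the E2F match TTTGGCGC and CCAAT in the S members, and the CHR element (cell cycle genes homology region, TTTGAA or TTTAAA) and CCAAT in the G2/M members, each on either strand, so that CCAAT may read ATTGG and TTTGAA may read TTCAAA.
Mcm5 (chr8:75109349-75109508, plus strand): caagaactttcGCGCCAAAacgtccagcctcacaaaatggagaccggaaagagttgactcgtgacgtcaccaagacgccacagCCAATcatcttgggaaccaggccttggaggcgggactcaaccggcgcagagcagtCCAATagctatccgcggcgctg
Mcm6 (chr1:128359706-128359825, minus strand): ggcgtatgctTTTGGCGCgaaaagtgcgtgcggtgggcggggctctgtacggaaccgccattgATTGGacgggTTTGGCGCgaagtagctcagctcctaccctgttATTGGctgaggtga
Cdk1 (chr10:69352913-69353012, minus strand): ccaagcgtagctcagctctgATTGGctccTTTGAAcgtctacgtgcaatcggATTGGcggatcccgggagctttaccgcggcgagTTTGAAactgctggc
Ccnb1 (chr13:100786487-100786596, minus strand): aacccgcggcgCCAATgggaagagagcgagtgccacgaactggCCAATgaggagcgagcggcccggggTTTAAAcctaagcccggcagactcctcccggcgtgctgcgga
Ube2c (chr2:164769829-164769928, plus strand): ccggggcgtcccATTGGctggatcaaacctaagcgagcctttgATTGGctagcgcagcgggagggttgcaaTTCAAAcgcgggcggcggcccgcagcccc
Top2a (chr11:99024190-99024299, minus strand): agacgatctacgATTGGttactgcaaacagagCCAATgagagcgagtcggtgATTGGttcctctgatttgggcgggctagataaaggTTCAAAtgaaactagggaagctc
Windows were found for 36 of the 42 members, 15 S and 21 G2/M. An E2F match (TTTCCCGC or TTTGGCGC, both strands) lay in 40% of the S windows (6 of 15: Mcm3, Mcm5, Mcm6, Mcm7, Cdc6 and Cdt1), in 0 of the 21 G2/M windows, and in 1.63% of 27025 RefSeq promoters of the same length. A CHR match lay in 85.7% of the G2/M windows (18 of 21), in 26.7% of the S windows and in 27.8% of all promoters. A CHR and a CCAAT match lay together in 81.0% of the G2/M windows, 20% of the S windows and 10.9% of all promoters. None of the searched words contains another, and a match is a run of letters, not a shown binding site.

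The libraries differ in depth, RNA quality and cell makeup, and the tumor and BPK 4NQO replicate 2 stand apart. Total UMIs ran from 27383717 to 64169843, and median UMIs per kept cell were 2555 to 4509 in the gland libraries and 19536 in the tumor. In the tumor library 12.9% of barcodes were over the mitochondrial limit of 20%, against 0.839% to 2.15% in the glands, and with a limit of 10% 87 of its 88 calls were kept. Filters kept 31502 of 34526 barcodes, and marker gates placed 26798 in a class. The clusters built without any cell cycle gene gave the same class for 79.3% of cells, and 3342 cells lay near a gate's limit. BPK 4NQO replicate 2 shared 1 or 2 cell barcodes with each other library, against 26 to 107 for all other pairs. Libraries of 1 chemistry draw on the same barcode list, and whether replicate 2 was made with the labelled 3' v2 chemistry was not tested. This pair sets the spread in each test. Epithelium made up 32.6% of its cells against 61.6% to 67.5% elsewhere, and it held 453 T cells and 571 macrophages against 15 to 135 and 50 to 113. Trp53 stood at 47.7, 44.4, 44.2, 18.5 and 8.08 CPM (UMIs of the gene scaled to a total of 1e+06 UMIs of the class) and Brca1 at 1.83, 1.00, 1.01, 2.98 and 2.29 CPM over all epithelium. The labels do not say which exons the floxed alleles lose, and reads from the 3' end outside the lost part check nothing. The summed levels that rest on the BPK 4NQO pair are therefore given for both replicates. Many single genes are given only as 1 log2 fold change fitted to the pair. Members that differed widely between the 2 replicates over all epithelium are named further on.

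Across cell classes of the glands, basal cells and T cells held more of these transcripts than luminal, fibroblast, endothelial and pericyte cells in most libraries. The summed S members of the basal class were 437, 363, 540 and 560 CPM in the gland libraries, and their G2/M sum was 697, 688, 481 and 863 CPM. Luminal hormone-sensing cells, the class that carries the estrogen and progesterone receptors, held 313, 178, 176 and 226 CPM of S members and 544, 121, 119 and 176 CPM of G2/M members. Luminal alveolar cells, the secretory precursors, held 281, 181, 239 and 305 CPM of S members and 607, 244, 209 and 330 CPM of G2/M members. Within both luminal classes the vehicle library had the highest G2/M sum of the 4 gland libraries, and its intervals overlapped those of none of the others. In such sums, fewer dividing cells and less RNA per dividing cell cannot be told apart.

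Stromal classes lay on both sides of the luminal classes. In the 4NQO glands fibroblasts held 286, 187 and 277 CPM of G2/M members and endothelial cells 146, 132 and 328 CPM, above the 121, 119 and 176 CPM of hormone-sensing cells, while in the vehicle library both lay under them. For endothelial cells the 95% intervals overlapped those of hormone-sensing cells in PK 4NQO (128 to 165 against 114 to 129 CPM) and in replicate 1 (119 to 145 against 113 to 124 CPM). There the 2 classes do not differ beyond counting error. Pericytes, the contractile cells around capillaries, had lower G2/M sums than each epithelial, fibroblast, endothelial, macrophage and T cell class in 3 of the 4 gland libraries, at 64.8 (exact Poisson 95% interval 44.6 to 91.0), 119 (84.8 to 163) and 117 (91.2 to 149) CPM, and stood at 265 (223 to 313) CPM in BPK 4NQO replicate 2. In the PK 4NQO and replicate 1 libraries these intervals overlapped those of hormone-sensing and endothelial cells, so the values there do not differ beyond counting error. T cells had higher G2/M sums than each epithelial and stromal class in the 4NQO glands, at 2714, 2545 and 3069 CPM from 51, 135 and 453 cells. The 19 vehicle T cells held 6 G2/M UMIs in all, or 209 (76.7 to 455) CPM. Neutrophils, which no longer divide once mature, held 127 (54.7 to 250) CPM in the tumor, from 8 UMIs in 33 cells, and 289 (168 to 463) CPM in BPK 4NQO replicate 2, from 17 UMIs in 18 cells of which 64.7% were Mki67.

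**Figure D1:**
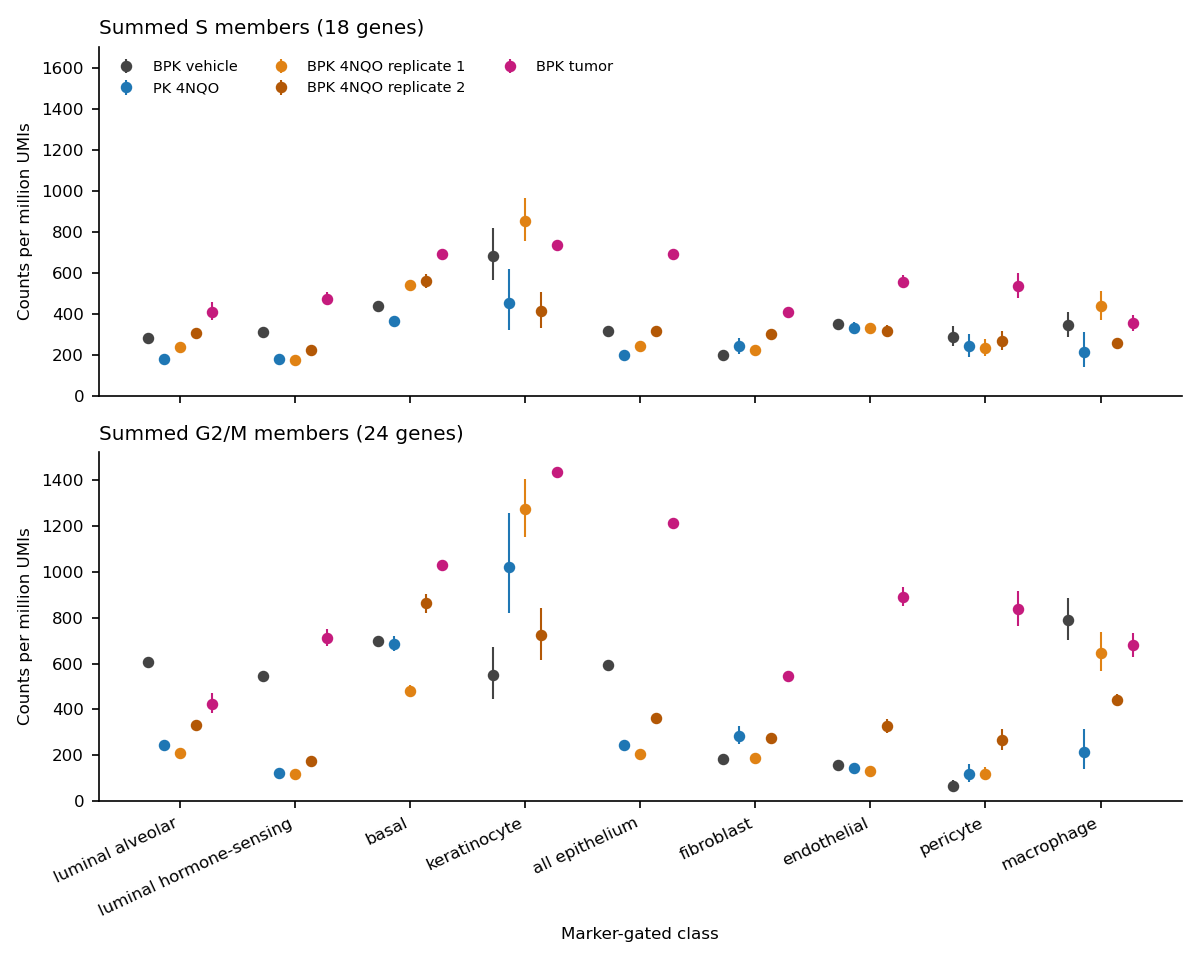
Summed S members (top) and G2/M members (bottom) in CPM (linear axes from 0) for 9 marker-gated classes. Each point is 1 library and each bar its exact Poisson 95% interval, which covers counting error only. The vehicle library lies above all 4NQO gland libraries for G2/M members in both luminal classes, and the tumor library lies highest over all epithelium.

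G2/M transcripts were concentrated in few cells, which held a smaller share of the transcripts of most S members. How concentrated S transcripts are in cells of their own was not measured. Each cell was thinned to 1500 UMIs, which left out 5473 shallower cells of 31502, and a cell was counted as positive with UMIs of at least 2 G2/M members. Of 26029 thinned cells, 2225 were positive (8.55%). For each G2/M member, cells positive by 2 others held from 51.2% (Knstrn) to 89.9% (Hmmr) of its UMIs. For the S members that share ran from 13.1% (Slbp) and 16% (Pcna) to 59.3% (Rrm2). Slbp and Pcna UMIs thus lay mostly in cells without a G2/M pair. Rrm2, the regulated subunit of ribonucleotide reductase, lay at the low end of the G2/M range, between Knstrn (51.2%) and Cenpa (63.3%). The members share cells, libraries and depth, so these shares are a description.

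**Figure D2:**
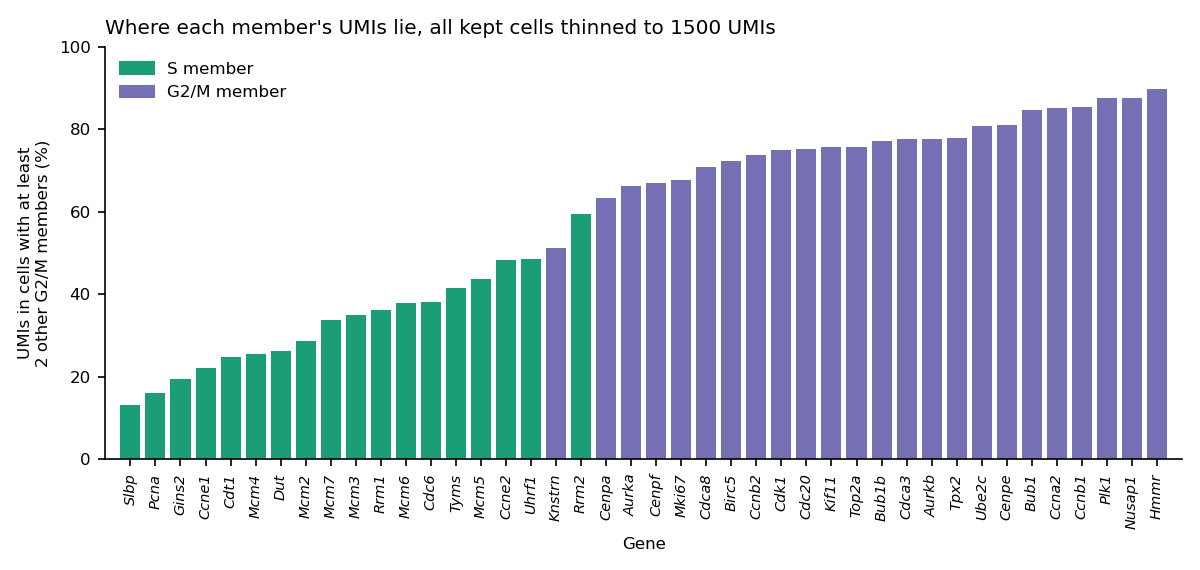
Share of each member's UMIs (percent, bars from 0) that lay in cells with UMIs of at least 2 other G2/M members, over all kept cells thinned to 1500 UMIs. The G2/M members take the high end, from 51.2% for Knstrn to 89.9% for Hmmr, and among S members Rrm2 is highest with 59.3%.

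The first comparison asks what 12 injections of 4NQO changed in BPK glands. The clearest difference lay in luminal hormone-sensing cells, where all 24 G2/M members had lower CPM in both BPK 4NQO libraries than in the vehicle library. Over all genes tested in that class, 21.9% were lower without overlap. The summed G2/M level was 544 (533 to 555) CPM in the vehicle library against 119 (113 to 124) and 176 (165 to 188) CPM in BPK 4NQO, a log2 ratio of -1.91 with both replicates, -2.20 with replicate 1 alone and -1.63 with replicate 2 alone. PK glands given 4NQO held 121 CPM, at the level of BPK replicate 1. With 1 vehicle library, vehicle against 4NQO and that gland's own state cannot be told apart.

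In edgeR's quasi-likelihood test with Benjamini-Hochberg adjustment over all genes of a class, 7 of the 24 G2/M members passed as lower in hormone-sensing cells at an adjusted p under 0.05, where 0.176% of all 13081 genes tested were called lower. No S member passed there, with 4 at an unadjusted p under 0.05. Cdca3 stood at 28.8 CPM in the vehicle library and at 4.22 and 2.36 CPM in the BPK 4NQO libraries, which is -3.16 ± 0.63 (SE) as log2 fold change, with an adjusted p of 0.000503 by edgeR. Knstrn, which helps sister chromatids separate at the spindle, stood at 28.6 CPM against 4.53 and 2.55 CPM (-3.05 ± 0.63, adjusted p = 0.000931 by edgeR). In both genes the vehicle value lay far above either BPK 4NQO library, and PK 4NQO was low as well, at 5.57 and 7.82 CPM.

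The core mitotic kinase and a cyclin partner passed as well. Ccnb2, a mitotic cyclin, fell from 36.0 CPM to 3.72 and 7.27 CPM (log2 -2.91, adjusted p = 0.00286 by edgeR), and its kinase Cdk1 fell from 22.4 to 4.40 and 3.73 CPM (-2.56, adjusted p = 0.0165 by edgeR). Birc5 and Cdca8, which sit together in the chromosomal passenger complex, fell by 2.62 and 2.41 on the log2 scale (adjusted p = 0.0186 and 0.0348 by edgeR). Ube2c, which tags cyclins for destruction, fell from 62.3 to 13.5 and 7.07 CPM (-2.65, adjusted p = 0.0302 by edgeR). These genes act at entry into and exit from mitosis, and in each of them both BPK 4NQO libraries lay under the vehicle. The median G2/M log2 change in this class was -2.08, against 0.01 over all genes tested.

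Not all G2/M members were lower to the same degree. Top2a, the topoisomerase that untangles chromosomes, stood at 49.9, 6.64, 10.9, 45.2 and 49.9 CPM in hormone-sensing cells, a log2 change of -1.08. Mki67, which coats mitotic chromosomes, stood at 26.0, 6.96, 4.96, 21.8 and 16.6 CPM, a change of -1.22, and Cenpf had a change of -1.24. For Top2a and Mki67, replicate 2 lay close to the vehicle library while replicate 1 and PK 4NQO lay far under it, and neither gene passed the test.

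S members in hormone-sensing cells differed less. Their sum was 313 CPM in the vehicle library against 176 and 226 CPM, and 14 of 18 were lower without overlap, against 21.9% of all genes tested. Rrm2 had the lowest log2 change, -2.31, with 19.5 CPM against 4.34 and 4.13 CPM and an adjusted p of 0.059 by edgeR, followed by Tyms with -1.77 and Uhrf1 with -1.67. Mcm5 stood at 10.8 CPM against 1.55 and 6.88 CPM (-1.66). Mcm7 (0.59), Ccne2 (0.49) and Pcna (-0.26) had the highest log2 changes, and Pcna stood at 25.2 CPM against 22.8 and 23.4 CPM. Ccne1 had a change of -1.28 and Rrm1 of -0.90, and none of these members passed the test.

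Luminal alveolar cells had lower G2/M members as well, by less. There 21 of 24 G2/M members were lower without overlap, against 16.7% of all genes tested. Cdca3 (29.2 CPM against 6.46 and 4.16 CPM, log2 -2.55 ± 0.58, adjusted p = 0.00600) and Knstrn (35.3 CPM against 8.18 and 8.03 CPM, log2 -2.28 ± 0.59, adjusted p = 0.0346) were the 2 called by edgeR's quasi-likelihood test, where 0.0763% of all genes were called lower. Cenpa, the centromeric histone, came next with -2.03, and Top2a (-0.69) and Mki67 (-0.52) were among the 3 with the highest values. The median was -1.21 for G2/M members and -0.43 for S members, where Rrm2 (-1.47), Ccne1 (-1.45) and Gins2 (-0.86) were lowest and Mcm7 (0.69), Ccne2 (0.39) and Pcna (0.26) highest.

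The summed G2/M level of the basal class did not share this difference. It was 697 CPM in the vehicle library, 481 CPM in replicate 1 and 863 CPM in replicate 2, so the vehicle lay between the 4NQO replicates. Top2a alone gave 24.6% of the sum of replicate 2, while the top member of the vehicle library, Cenpa, gave 11.2%. By single genes, 10 of 24 G2/M members were lower without overlap, 1 was higher and 13 overlapped. The share of all genes lower without overlap in this class is not given here. Knstrn had the lowest log2 change (-1.86, 46.3 CPM against 13.7 and 14.8 CPM), followed by Ccnb2 (-1.10) and Cenpa (-1.05), while Top2a (0.81), Nusap1 (0.66) and Mki67 (0.66) were highest. No member was called in basal cells, with 1 G2/M and 1 S member at an unadjusted p under 0.05 by edgeR, where 0.61% of all genes were called higher and 0.053% lower. The S sum was 437 CPM in the vehicle library and 540 and 560 CPM in the BPK 4NQO libraries, with Mcm7 (1.54), Uhrf1 (1.05) and Ccne2 (0.90) highest and Rrm2 (-0.75), Gins2 (-0.56) and Dut (-0.38) lowest. Whether basal and luminal changes differ was not tested. The keratinocyte gate, with 31 vehicle cells, let 10 S and 13 G2/M members pass the filter and had no call and no unadjusted p under 0.05 by edgeR, where 0.55% of all genes were called higher and 0.15% lower. Its S members ran from Pcna (-1.53), Mcm2 (-1.47) and Mcm6 (-1.01) to Mcm5 (0.31), Mcm7 (0.37) and Rrm2 (0.99). Its G2/M members ran from Ccnb2 (-0.29), Cenpf (-0.01) and Birc5 (0.33) to Cenpa (1.84) and Mki67 (3.12), with Top2a at 1.37, and Ccnb1 had no UMI in the vehicle library.

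Over all epithelium, 20 of 24 G2/M members and 8 of 18 S members were lower without overlap, against 19.3% of all genes tested, and Pcna was higher, against 32.2%. Cdca3 (28.3, 8.94, 6.80, 4.38 and 35.9 CPM, log2 -2.46, adjusted p = 0.0151) and Knstrn (34.1, 16.4, 7.20, 6.56 and 43.5 CPM, log2 -2.46, adjusted p = 0.0200) were called lower by edgeR, where 0.107% of all genes were. Its S members ran from Rrm2 (-1.41), Tyms (-1.14) and Gins2 (-0.89) to Pcna (0.05), Ccne2 (0.54) and Mcm7 (0.70), with Mcm5 at -0.85, and the highest G2/M members were Kif11 (-0.78), Mki67 (-0.42) and Top2a (-0.41). Over all kept cells no member was called, with 4 G2/M members at an unadjusted p under 0.05 by edgeR, where 0.462% of all genes were called higher and 0.105% lower. There the G2/M members ran from Knstrn (-2.32), Cdca3 (-2.20) and Ccnb2 (-1.66) to Kif11 (-0.41), Top2a (-0.11) and Mki67 (0.43). The S members ran from Gins2 (-0.93), Tyms (-0.83) and Rrm2 (-0.82) to Cdc6 (0.40), Mcm7 (0.62) and Ccne2 (0.95). Mki67 over all cells was 28.7 CPM in the vehicle library and 11.1 and 91.5 CPM in the replicates, so its direction depended on the replicate.

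In all, 11 tests over 7 members passed in this comparison, each of them lower and each a G2/M member: Cdca3 and Knstrn in 3 settings each, and Ccnb2, Ube2c, Birc5, Cdk1 and Cdca8 in hormone-sensing cells. DESeq2 called 0 of these 11 (adjusted p from 0.0909 to 0.738, with 38 tests at an unadjusted p under 0.05 against 57 with edgeR), and 4 of the 11, on 2 members, were called when classes came from clusters. Those 2 members were Cdca3 and Knstrn, so the calls of Ccnb2, Ube2c, Birc5, Cdk1 and Cdca8 were lost in both alternatives. Each call in hormone-sensing cells was kept in 4 or 5 of 7 alternatives. Leaving out a BPK 4NQO library leaves no residual degree of freedom, so both replicates are given as values for the sums and for part of the genes.

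**Figure D3:**
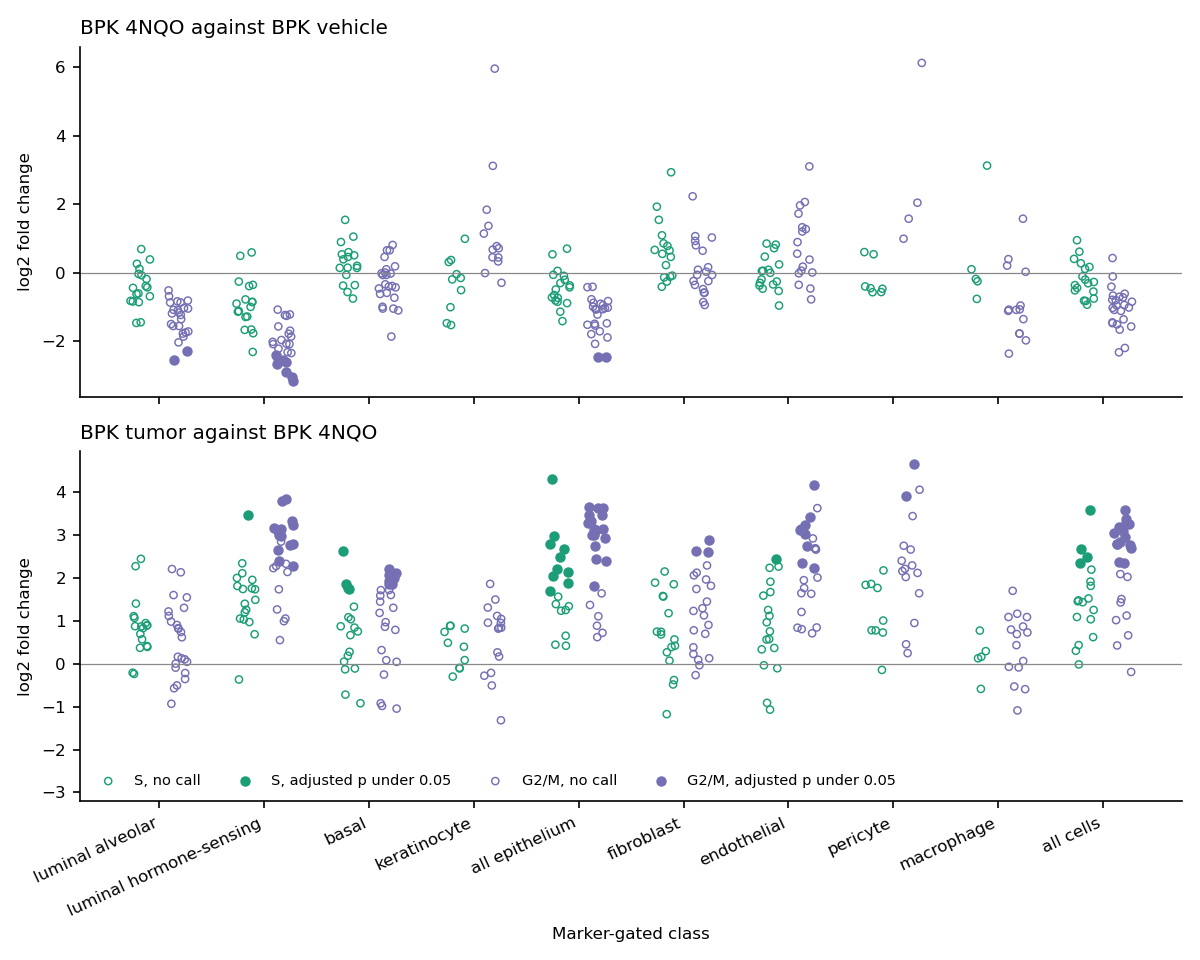
log2 fold change by edgeR (linear axis) of each S member (green) and G2/M member (purple) that passed the filter on low counts, by class, for BPK 4NQO against BPK vehicle (top) and BPK tumor against BPK 4NQO (bottom). Filled points passed an adjusted p of 0.05. In the top panel they are 11 G2/M points under 0, 7 of them in hormone-sensing cells, and in the bottom panel 88 points above 0. Points near 6 are genes with no UMI in a library, where the fitted value is no bound.

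Other cell cycle genes were read from a list of 81 in 3 groups. In hormone-sensing cells 0.176% of all 13081 genes tested were called lower. There 1 of 32 further mitosis genes, the kinetochore subunit Spc24 (25.3 CPM against 2.73 and 5.31 CPM, log2 -2.86, adjusted p = 0.00286), was called lower by edgeR, and 0 higher. Of 21 further replication genes 20 passed the filter and 1 was called lower, the thymidine kinase Tk1 (25.1 CPM against 4.34 and 3.34 CPM, log2 -2.79, adjusted p = 0.00392 by edgeR). Of 28 regulators 0 were called, with 5 at an unadjusted p under 0.05 by edgeR. Their medians were -1.35, -0.96 and -0.22.

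In both luminal classes the share of G2/M-positive cells was higher in the vehicle library than in each 4NQO gland library, while the order among the 4NQO glands differed from that of the sums in alveolar cells. In hormone-sensing cells thinned to 1500 UMIs it was 11.1% in the vehicle library (216 of 1940 cells, exact Clopper-Pearson 95% interval 9.77% to 12.6%), 1.93% in PK 4NQO, 1.51% in BPK 4NQO replicate 1 (0.994% to 2.18%), 2.76% in replicate 2 (1.67% to 4.27%), and 11.2% (12 of 107 cells, 5.93% to 18.8%) in the tumor. Unthinned, these shares were 22.8%, 4.72%, 4.49%, 7.27% and 48.6%. In alveolar cells the thinned shares were 16.7%, 6.29%, 4.67%, 5.23% and 8.70% (4 of 46 cells), and unthinned 34.2%, 14.9%, 11.7%, 9.49% and 46.8%. A positive hormone-sensing cell held 5.58, 4.40, 5.56, 5.11 and 5.58 G2/M UMIs on average, a value that the definition of a positive cell bounds from under. As a background, 0 of 12 neutrophils of BPK 4NQO replicate 2 and 0 of 9 of the tumor were positive, which allows shares of up to 25% and 33.3%, and pericytes of the vehicle library, with a median of 2257 UMIs, were positive in 0.694% (1 of 144). Median UMIs of the hormone-sensing cells thinned were 6900, 4702, 6889.5, 5300 and 16455.

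**Figure D4:**
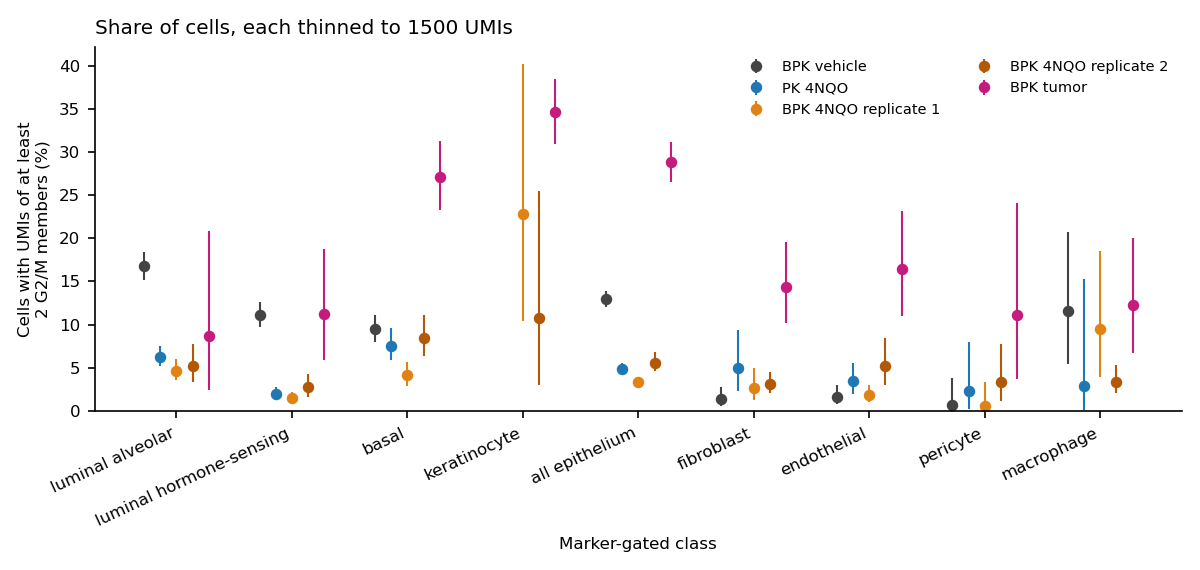
Share of cells (percent, linear axis from 0) with UMIs of at least 2 G2/M members, each cell thinned to 1500 UMIs, by class and library, with exact Clopper-Pearson 95% intervals. Classes with fewer than 30 cells in a library are not drawn. The vehicle shares of 16.7% in alveolar and 11.1% in hormone-sensing cells lie above all 4NQO gland libraries, and the tumor reaches 34.6% in the keratinocyte gate.

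Positive cells were also spread differently over classes. Of the 822 positive cells of the vehicle library, 40.6% were alveolar and 26.3% hormone-sensing, and of the 290 of PK 4NQO 37.6% and 10.3%. T cells were 15.7% of the 242 positive cells in BPK 4NQO replicate 1 while 0.934% of its thinned cells, and 29.7% of the 360 in replicate 2 while 3.24% of its cells. In replicate 2, positive T cells outnumbered those of each epithelial class. Thinned T cells were positive in 67.9% (38 of 56) and 71.8% (107 of 149), but thinning left out 79 and 304 shallower T cells, and unthinned shares were 32.6% and 29.8%. The labels say that lymph nodes were removed before digestion.

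Outside the epithelium the order of libraries was another. The G2/M sum of fibroblasts was 184, 286, 187 and 277 CPM and that of endothelial cells 156, 146, 132 and 328 CPM in the gland libraries. Pericytes went from 64.8 CPM in the vehicle library to 117 and 265 CPM, with 33 G2/M UMIs behind the vehicle value. No member was called in these classes or in macrophages (edgeR, DESeq2). Of all genes, edgeR called 0.25% higher and 0.0578% lower in fibroblasts, 0.0864% and 0.0192% in endothelial cells, 0.0135% in each direction in pericytes and 0% in macrophages. Macrophages held 790 CPM in the vehicle library against 647 and 441 CPM, and 213 CPM in PK 4NQO from 50 cells.

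The second comparison sets glands with 1 floxed Brca1 allele against glands with none, both given 4NQO. It shares the BPK 4NQO libraries with the first. No PK vehicle library was analysed here, so it gives a difference in level under 4NQO and not in the response to it. Genotype cannot be told apart from the single PK library, the only library made with Cell Ranger 3.0.2. No member was called in any class by edgeR, where 9 tests over members had an unadjusted p under 0.05, or by DESeq2, where 5 had. Of all genes over all epithelium, edgeR called 0.363% higher and 0.0806% lower. Over all epithelium 15 of 18 S members were higher in both BPK libraries than in PK 4NQO, where 36.9% of all genes tested were, and 0 were lower. Of 24 G2/M members 5 were higher and 7 lower without overlap, where 17.6% of all genes were lower. The S sum was 199 CPM in PK (95% interval 194 to 204) against 244 CPM in BPK replicate 1 (239 to 249) and 314 CPM in BPK replicate 2 (304 to 325), while the G2/M sum of PK, 243 CPM, lay between those of BPK, 205 and 364 CPM. With TMM scaling the log2 ratio of the G2/M sum turned from 0.17 to -0.07.

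The S difference was seen in the basal class too. There 14 of 18 S members were higher without overlap, against 37.2% of all genes, and the sum was 363 CPM in PK against 540 and 560 CPM in BPK, a log2 ratio of 0.60 (0.57 and 0.63 with each replicate alone). Uhrf1, which guides DNA methylation to new strands, stood at 3.10 CPM against 7.14 and 32.7 CPM (log2 2.37, adjusted p = 0.71 by edgeR). Mcm2 stood at 2.71 CPM against 9.31 and 14.8 CPM (log2 1.92), and Mcm5 at 6.58 CPM against 13.0 and 18.5 CPM (1.05). Dut (-0.19), Gins2 (-0.01) and Slbp (0.01) were lowest. All of the helicase genes Mcm2 to Mcm7 lay higher in both BPK libraries than in PK in this class, and none was called. Over the class the median was 0.70 for S members and -0.30 for G2/M members, with Knstrn (-1.46), Cenpf (-1.11) and Cdc20 (-0.97) lowest and Top2a (0.94), Mki67 (0.61) and Nusap1 (0.50) highest.

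In alveolar cells 15 of 18 S members were higher without overlap, against 38.9% of all genes, with Ccne2 (1.22), Mcm7 (1.16) and Uhrf1 (1.12) highest and Ccne1 (-0.41), Gins2 (-0.20) and Dut (-0.04) lowest. Their G2/M members ran from Knstrn (-1.41), Cenpa (-1.04) and Cdca3 (-1.01) to Bub1 (0.58), Mki67 (0.87) and Top2a (0.97). In hormone-sensing cells 6 S members were higher, against 34.7% of all genes, from Dut (-0.60), Gins2 (-0.33) and Mcm2 (-0.28) to Ccne2 (0.89), Uhrf1 (1.13) and Mcm7 (1.17), and Mcm5 (0.17) and Pcna (0.09) lay near 0. Their G2/M members ran from Knstrn (-1.20), Cdca3 (-0.81) and Ccnb1 (-0.76) to Bub1b (0.86), Aurkb (1.71) and Top2a (1.81), with Mki67 at 0.66.

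Over all epithelium Uhrf1 (1.48), Ccne2 (1.33) and Mcm7 (1.21) were highest among S members and Dut (-0.23), Gins2 (-0.23) and Slbp (-0.15) lowest, with a median of 0.41. G2/M members had a median of 0.04, from Knstrn (-1.43), Cenpa (-0.83) and Cdca3 (-0.83) to Bub1 (0.54), Mki67 (0.82) and Top2a (1.20). Over all kept cells the ends were Gins2 (-0.31), Dut (-0.23) and Slbp (-0.18) against Mcm3 (1.15), Uhrf1 (1.46) and Ccne2 (1.54), and Knstrn (-1.38), Cdca3 (-0.72) and Cenpa (-0.54) against Bub1 (0.69), Top2a (1.29) and Mki67 (1.58). Knstrn was thus lowest of the G2/M members in each of these settings, at 16.4 CPM in PK against 7.20 and 6.56 CPM over all epithelium. Of the further cell cycle genes 0 were called over all epithelium by edgeR, with 1 regulator at an unadjusted p under 0.05. In macrophages 17 of 24 G2/M members were higher than in PK, against 39.9% of the genes that passed the filter on low counts. Only 14 of the 24 passed that filter. The 50 PK macrophages held 26 G2/M UMIs from 10 of the 24 members. A member without a UMI in PK cannot be lower in BPK, so the count cannot be set against that share.

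For some members the 2 BPK 4NQO libraries differed widely from one another. Over all epithelium Mki67 was 9.52 CPM in replicate 1 and 46.3 CPM in replicate 2, a log2 difference of 2.22, and Top2a 21.6 and 86.5 CPM, a difference of 1.98. Cenpe (1.97), Mcm7 (1.93), Uhrf1 (1.69) and Hmmr (1.59) were also above the 95th percentile of all 14892 genes (1.58). Dut (-0.81), Cenpa (-0.75) and Cdca3 (-0.58) were lowest. Of the S members 13 of 18 and of the G2/M members 18 of 24 were higher in replicate 2, where the median of all genes was 0.30. Top2a alone gave 23.8% of the G2/M sum of replicate 2 over all epithelium, where Ube2c or Cenpa led in each other library with 10.6% to 16.1%. Mki67 was high in replicate 2 in immune cells too, at 171 CPM in macrophages against 24.6 to 43.6 CPM in the other libraries, where it gave 38.8% of the G2/M sum. In neutrophils of replicate 2 Mki67 stood at 187 (93.4 to 335) CPM from 11 UMIs, while the other libraries held 0 Mki67 UMIs in 2 to 33 neutrophils. Only 3.42% of thinned macrophages and 0 of 12 neutrophils of replicate 2 were positive by 2 members. Whether tissue or library preparation differed between the replicates was not tested.

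**Figure D5:**
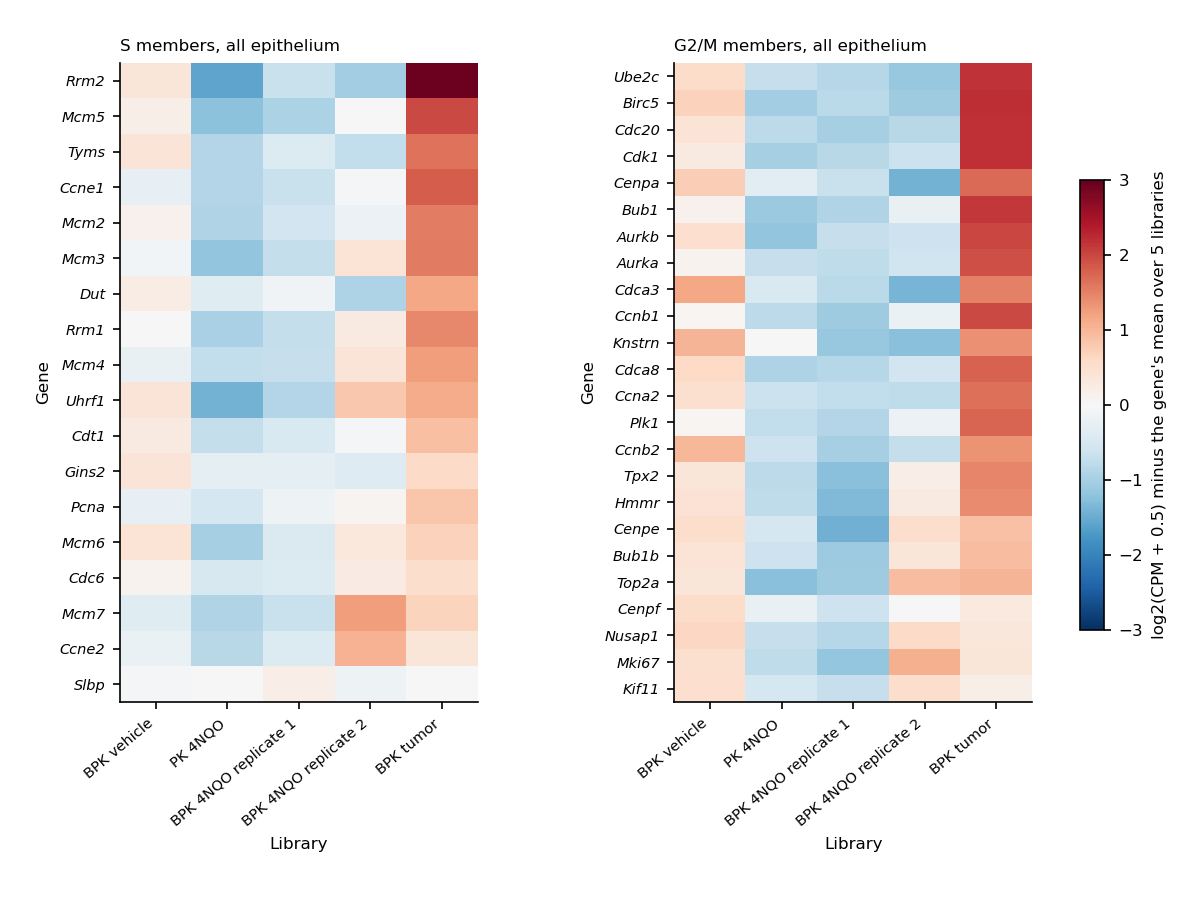
Level of each member over all epithelium in the 5 libraries, as log2(CPM + 0.5) minus the mean of that gene over the 5 libraries, for S members (left) and G2/M members (right), ordered by the difference between the tumor and BPK 4NQO. The tumor column is highest for 15 of 18 S and 20 of 24 G2/M members. Mki67, Mcm7 and Ccne2 are highest in BPK 4NQO replicate 2.

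The third comparison sets the tumor against BPK 4NQO glands. Over all epithelium 28 of 42 members were higher by edgeR's quasi-likelihood test, 18 of 24 G2/M and 10 of 18 S members, and 0 were lower, where 7.91% of all 15484 genes tested were called higher and 7.91% lower. The comparison rests on the BPK 4NQO libraries used above and on 1 tumor. Without regard to the test, 21 G2/M and 15 S members were higher than both BPK 4NQO libraries, against 26.5% of all genes. The summed G2/M level was 1212 (1202 to 1222) CPM against 205 and 364 CPM, a log2 ratio of 2.15 (2.56 and 1.74 with each replicate alone). The S sum was 693 CPM against 244 and 314 CPM, a log2 ratio of 1.32. The median log2 change was 2.99 for G2/M members and 1.79 for S members, while the median of all genes was -0.12 in the fit and -0.42 on plain CPM.

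Rrm2 had the largest change of all members. It stood at 15.8, 3.71, 7.46, 5.60 and 96.2 CPM, which is 4.31 ± 0.69 (SE) as log2 fold change, with an adjusted p of 2.8e-08 by edgeR. Of the other nucleotide enzymes Tyms (2.68), Rrm1 (2.14) and Dut (2.04) were called. Of the helicase and its loaders Mcm5 (12.2, 4.26, 5.24, 10.8 and 43.3 CPM, log2 2.98, adjusted p = 8.2e-05 by edgeR), Mcm2 (2.48), Mcm3 (2.21), Mcm4 (1.88) and Cdt1 (1.69) were called, and Mcm6, Mcm7, Gins2 and Cdc6 were not. Ccne1 was called (2.79) while Ccne2 (0.44) was not. Slbp (0.42) and Mcm7 (0.65) were with Ccne2 the lowest S members. Pcna stood at 28.0, 23.2, 30.3, 35.7 and 59.8 CPM (1.34, adjusted p = 0.18 by edgeR) and Uhrf1 at 16 CPM in the tumor (1.56, adjusted p = 0.062).

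The G2/M members that rose are given by role. For degradation at anaphase, Cdc20 stood at 24.4, 10.4, 8.91, 10.1 and 85.2 CPM (log2 3.64 ± 0.68, adjusted p = 3.8e-06) and Ube2c at 63.2, 26.4, 23.6, 19.3 and 195 CPM (3.63 ± 0.77, adjusted p = 7.7e-05, both by edgeR). For the kinase at entry, Cdk1 stood at 21.0, 8.53, 9.52, 10.9 and 81.5 CPM (3.47), with its cyclins Ccnb1 (3.15), Ccna2 (2.99) and Ccnb2 (2.74). In each of these genes the tumor value was above all 4 gland libraries.

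The passenger complex rose with Birc5 (44.7, 13.2, 15.6, 13.0 and 129 CPM, 3.62), Aurkb (3.33) and Cdca8 (3.0), and the other mitotic kinases with Aurka (3.27) and Plk1 (2.92). Checkpoint kinases rose with Bub1 (3.46) and Bub1b (1.81). Centromere and spindle genes rose with Cenpa (3.15), Knstrn (3.11), Tpx2 (2.45) and Hmmr (2.40), and Cdca3 changed by 3.10. The 6 G2/M members that were not called were Mki67 (0.62), Kif11 (0.72), Nusap1 (0.88), Cenpf (1.11), Top2a (1.37) and Cenpe (1.64). Mki67 stood at 30.3, 12.5, 9.52, 46.3 and 28.2 CPM and Top2a at 58.8, 18.9, 21.6, 86.5 and 92.9 CPM, so for both the tumor lay near vehicle or replicate 2. Against replicate 1 alone each of these 6 was higher in the tumor.

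The vehicle library sets a scale for the tumor. Over all epithelium it held 595 (588 to 601) CPM of G2/M members and 319 CPM of S members, between the 4NQO glands and the tumor. For Cdca3 (28.3 against 35.9 CPM) and Knstrn (34.1 against 43.5 CPM) vehicle and tumor were close, while for Rrm2 and Cdk1 the tumor was far above it. The thinned share of positive epithelial cells was 13.0% (12.1% to 13.9%), 4.87%, 3.33%, 5.61% and 28.8% (26.5% to 31.2%), and unthinned 25.2%, 9.54%, 7.29%, 9.10% and 73.1%. Median UMIs of these cells were 6679, 4812, 6314, 4079 and 30959.5. Cells positive for both S and G2/M pairs were 3.37%, 0.872%, 1.22%, 1.72% and 9.44% of thinned epithelial cells.

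Cell makeup moved with this comparison. The tumor's 1514 epithelial cells held 504 in the basal gate, 641 in the keratinocyte gate, 107 hormone-sensing and 47 alveolar cells, while replicate 1 held 999, 38, 1849 and 1212 of 4321. The basal and keratinocyte gates are cut from marker scores, with 116 and 109 tumor cells near a limit, so they are ranges and not types. Within the basal gate 11 of 42 members were called higher (7 G2/M and 4 S), against 6.6% of all genes tested. DESeq2 kept Birc5, Rrm2 and Ube2c and called none of the other 8 (adjusted p from 0.0853 to 0.282). The 11 were Rrm2 (2.64), Birc5 (2.21), Bub1 (2.12), Ube2c (2.06), Aurka (1.99), Cdc20 (1.92), Cdk1 (1.87), Mcm5 (1.86), Cdca3 (1.86), Tyms (1.76) and Mcm2 (1.75). Basal Rrm2 stood at 32.1, 11.6, 28.9, 11.1 and 99.2 CPM (adjusted p = 0.0013 by edgeR). The lowest basal values were those of Mki67 (-1.05, 34.1, 34.8, 23.0, 107 and 21.7 CPM), Kif11 (-0.98), Nusap1 (-0.92), Ccne2 (-0.92), Slbp (-0.72) and Mcm7 (-0.13), with Top2a at -0.25, Pcna at 0.19 and none of them called.

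Hormone-sensing cells of the tumor, 107 in number, had 14 G2/M members and 1 S member called higher, against 1.23% of all genes tested, and DESeq2 kept 10 of these 15. Basal markers summed to 1277 CPM in these cells against 62.8 and 102 CPM in BPK 4NQO, and keratinocyte markers to 1900 CPM against 530 and 741 CPM, and 21 of the 107 cells lay near a gate's limit. The part of such RNA in these calls was not tested. Cdk1 stood at 22.4, 4.82, 4.40, 3.73 and 54.4 CPM (log2 3.83 ± 0.69, adjusted p = 8.5e-06) and Ccnb1 at 11.9, 3.53, 2.23, 2.36 and 29.4 CPM (3.79 ± 0.68, adjusted p = 7.6e-06, both by edgeR). Rrm2 (3.47), Cdca3 (3.33), Birc5 (3.22), Ube2c (3.16), Aurkb (3.13), Ccnb2 (3.09) and Cdc20 (3.01) followed. Knstrn (2.97), Cdca8 (2.80), Ccna2 (2.77), Cenpa (2.65), Hmmr (2.39) and Nusap1 (2.28) completed the called set. Among S members Ccne1 (2.34) and Mcm3 (2.11) came after Rrm2, with Mcm5 at 1.76 and Pcna at 1.20. The lowest were Mcm7 (-0.37), Mcm4 (0.69) and Gins2 (0.97) among S members and Mki67 (0.55), Kif11 (0.99) and Top2a (1.05) among G2/M members. The summed G2/M level of these cells, 712 (676 to 749.5) CPM, lay above the vehicle's 544 CPM by less than above the 4NQO libraries.

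The 47 alveolar cells and the keratinocyte gate had no call (edgeR, with 5 alveolar members at an unadjusted p under 0.05). Of all genes, 0.803% were called higher and 0.255% lower in alveolar cells, and 0.706% and 1.02% in the keratinocyte gate. Basal markers summed to 1267 CPM in the tumor's alveolar cells against 106 and 215 CPM in BPK 4NQO. In alveolar cells Ube2c (2.21), Cdc20 (2.13) and Aurkb (1.60) and, of S members, Rrm2 (2.44), Cdc6 (2.27) and Cdt1 (1.40) were highest. Ccna2 (-0.93), Bub1b (-0.57), Mki67 (-0.51), Mcm7 (-0.24), Mcm2 (-0.21) and Slbp (0.37) were lowest, with Top2a at 0.00, Pcna at 0.87 and Mcm5 at 1.11. In the keratinocyte gate 26 members passed the filter, from Nusap1 (-1.32), Mki67 (-0.51), Mcm7 (-0.30), Cenpf (-0.28), Mcm6 (-0.11) and Slbp (-0.10) to Tyms (0.82), Rrm2 (0.88), Pcna (0.89), Ube2c (1.31), Cdc20 (1.49) and Knstrn (1.86). That gate held only 31, 23, 38 and 39 cells in the gland libraries. Its G2/M sum was 552, 1022, 1275, 724 and 1437 CPM, the highest of the epithelial classes in the tumor.

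Stromal cells of the tumor library held more of these transcripts as well, in CPM. Endothelial cells had 9 G2/M members and Rrm2 called higher, against 1.79% of all genes tested. Of these, DESeq2 called Birc5 and Ube2c. It did not call Rrm2 and Cenpa (adjusted p = 0.227 and 0.208 by DESeq2) and gave the others no adjusted p. Ccna2 stood at 4.66, 3.01, 1.67, 2.22 and 31.8 CPM (log2 4.15 ± 0.87, adjusted p = 0.00031 by edgeR), and Birc5 at 13.1, 9.64, 10.3, 11.1 and 106 CPM (3.42). Knstrn (3.23), Cdk1 (3.13), Ube2c (3.11), Cdca3 (3.03), Cdca8 (2.74), Rrm2 (2.45), Ccnb2 (2.34) and Cenpa (2.22) were the others. Their G2/M sum was 891 (850 to 934) CPM against 132 and 328 CPM, and their thinned positive share 16.5% (26 of 158 cells, 11.0% to 23.2%) against 1.80% and 5.26%, with 46.5% against 2.64% and 5.23% unthinned. In pericytes Birc5 (3.93, 3.06, 1.73, 3.73 and 70.6 CPM, log2 4.65) and Ube2c (1.96, 9.17, 3.45, 13.1 and 120 CPM, log2 3.90) were called, against 1.22% of all genes. DESeq2 gave neither pericyte call an adjusted p, and 5 of 6 alternatives kept that of Birc5. In fibroblasts Ube2c (2.89), Cenpa (2.63) and Cdk1 (2.60) were called, against 1.14%, and DESeq2 called none of these 3 (adjusted p = 0.129, 0.259 and 0.425).

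Markers of basal epithelium moved with these stromal values. The 7 basal markers summed to 1103 CPM in tumor endothelial cells against 142 to 251 CPM in the glands, to 3371 CPM against 401 to 628 CPM in fibroblasts, and to 6246 CPM against 4147 to 5489 CPM in pericytes, which share Acta2 with basal cells. In tumor cells of the basal gate there were 23.3 basal-marker UMIs for each G2/M UMI, against 1.24 in tumor endothelial cells, 6.18 in fibroblasts and 7.45 in pericytes. Keratinocyte markers moved as well, to 614 CPM in tumor endothelial cells against 31.0 and 17.7 CPM in BPK 4NQO, to 1044 CPM against 397 and 207 CPM in fibroblasts and to 648 CPM against 74.2 and 14.9 CPM in pericytes. The part of RNA from other tumor cells in the stromal values was not tested. Tumor macrophages, with 1226 CPM of basal markers, had a G2/M sum of 680 CPM against 647 and 441 CPM and no member called (edgeR, with 0.163% of all genes called higher).

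Over all kept cells of the tumor 15 G2/M and 4 S members were called higher, against 2.84% of all genes tested. Rrm2 (3.58), Ccne1 (2.68), Mcm5 (2.49) and Tyms (2.36) were the S members, and Cdc20 (3.57), Ube2c (3.38) and Birc5 (3.27) led the G2/M members, followed by Cdk1 (3.26), Aurka (3.18), Ccnb1 (3.09), Bub1 (3.05), Knstrn (2.94), Cdca3 (2.83), Aurkb (2.80), Plk1 (2.79), Cdca8 (2.76), Cenpa (2.69), Ccna2 (2.38) and Ccnb2 (2.34). The lowest were Ccne2 (-0.02), Cdc6 (0.30) and Slbp (0.43), and Mki67 (-0.19), Kif11 (0.43) and Nusap1 (0.66), with Top2a at 1.02 and Pcna at 1.09. Over the 10 settings 88 tests on 29 members passed, 68 on G2/M and 20 on S members, each of them higher in the tumor. DESeq2 called 60 of the 88, and 64 of the 88 passed under each alternative that gave them an adjusted p. DESeq2 gave none for some genes of small classes. Classes from clusters gave none for the calls in basal and hormone-sensing cells, so those calls were not checked under that class definition. With classes from clusters 60 of the 88 were called.

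Of the further cell cycle genes, 18 of 32 mitosis genes, 8 of 21 replication genes and 8 of 28 regulators were called higher over all epithelium, and 1 regulator was called lower, where 7.91% of all genes were called in each direction. The regulators that rose were led by the atypical repressors E2f8 (2.10, 0.593, 1.21, 1.93 and 20.5 CPM, log2 4.23, adjusted p = 1.9e-08 by edgeR) and E2f7 (3.95) and the phosphatase Cdc25b (3.70), with Cdc25c (2.69), E2f1 (2.42), Ccnd2 (2.37), Mybl2 (2.18) and E2f4 (2.10). The 1 regulator called lower, a share under that of all genes, was Rb1, which codes for the retinoblastoma protein that holds E2F factors. It fell by 3.10 on the log2 scale (72.1, 90.9, 82.2, 88.6 and 7.16 CPM, adjusted p = 0.0073 by edgeR). Rb1 stood at 5.53 CPM in basal and 9.30 CPM in hormone-sensing cells of the tumor, against 11.6 to 32.2 CPM and 32.9 to 55 CPM in the glands, and was called in neither class. Of the 2843 Rb1 UMIs in the epithelium of replicate 1, 577 lay in hormone-sensing and 40 in basal cells. Alveolar cells numbered 1212 in replicate 1 and 47 in the tumor, and the part of cell makeup in the Rb1 change was not tested. In basal cells 5 of 27 regulators tested were called higher, against 6.6% of all genes: Ccnd1 (2.51), E2f8 (2.15), Cdc25b (2.14), E2f4 (2.13) and Cdk6 (2.02). The Rb1 relative Rbl2 was the 1 called lower (-2.32). The share of all genes called lower in that class is not given here, so whether Rbl2 stands out cannot be told. E2f1, the best known partner of the retinoblastoma protein, stood at 5.87, 1.93, 2.66, 3.33 and 11.4 CPM over all epithelium.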

How the data were processed

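Dissociated mouse mammary tissue was profiled with 10x Genomics 3' v2 chemistry, per the labels' protocols, which for BPK 4NQO replicate 2 was not tested. The values are UMI counts per gene and barcode, made by the authors with Cell Ranger 3.0.2 (PK 4NQO) and 5.0.1 (the other libraries), per the file headers, on mm10, per the submitters' processing notes. Members and lists were chosen with earlier results of these data known. Barcodes with at least 300 genes and under 20% mitochondrial UMIs were kept, and doublets were removed by Scrublet score at an assumed 0.8% per 1000 barcodes (2072 barcodes). Classes were gated per cell by marker lists. Clusters (scanpy 1.11.5, 2000 variable genes, 30 components, 20 neighbours, resolution 1) were built without cell cycle genes as an alternative.

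Counts were summed per library and class with at least 30 cells in each library compared, and tested with edgeR 4.0.16 (R 4.3.3) by quasi-likelihood with TMM factors, filterByExpr and Benjamini-Hochberg adjustment over all genes, called under 0.05. The gland comparisons used the 4 gland libraries and the tumor comparison all 5. With 1 residual degree of freedom, single libraries are assumed to vary like the BPK 4NQO pair, and p-values measure only the spread between these samples. Steps were tested on simulated data. Poisson and Clopper-Pearson intervals (95%) and the limits for a count of 0 (3 counts) cover counting error only. Total UMIs per library, which set the precision, ran from 27383717 to 64169843. The heatmap adds 0.5 CPM before the logarithm.

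Genes named with values are every member called, the 3 highest and 3 lowest of each set over all cells and each epithelial class, and Mcm5, Pcna, Mki67 and Top2a. Alternatives were RLE factors, DESeq2 1.42.0, no filter on low counts, only the libraries compared, doublets kept, a 10% mitochondrial limit, classes from clusters, other depths for thinning and other thresholds for a positive cell. Thinning to 500 UMIs was added after seeing the data.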

Additional observations from a re-analysis of the deposited data

Results flagged for a closer look

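In BPK 4NQO against BPK vehicle, 5 summed levels went one way in both BPK 4NQO libraries of a class while both went the other way over all epithelium. The difference between the classes was not tested in any of them. For G2/M members the log2 ratio was -1.12 over all epithelium, against 0.80 in the keratinocyte gate, 0.31 in fibroblasts and 1.45 in pericytes, where the vehicle library held 33 G2/M UMIs. The fibroblast value rests on replicate 2, with 0.03 for replicate 1 alone and 0.59 for replicate 2 alone. For S members it was -0.20 over all epithelium, against 0.33 in basal cells and 0.38 in fibroblasts. Over all epithelium the S value of replicate 2 alone was -0.02, so that direction rests mainly on replicate 1. The keratinocyte gate held 31 vehicle cells.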

How the results depend on the processing

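Of the 4 counts and ratios that answered a comparison and changed, 2 were counts of calls in BPK 4NQO against BPK vehicle, 11 as reported, 0 with DESeq2 and 4 with classes from clusters, where the 4 were among the 11. The S ratio of the tumor to BPK 4NQO was 1.82 with TMM-scaled levels against 1.32, and the log2 ratio of their positive shares was 2.09 when 1 G2/M member was enough, against 2.74. The cause was not tested. The other 89 such values stayed on their side of the threshold, within 1.5 times the count or within the spread between replicates. Without either BPK 4NQO library in turn, the log2 ratios over all epithelium ran from -0.39 to -0.02 (S) and -1.53 to -0.71 (G2/M) against vehicle, from 0.29 to 0.66 and -0.24 to 0.58 against PK 4NQO, and from 1.14 to 1.51 and 1.74 to 2.56 for the tumor. The log2 ratios of positive shares ran from -1.96 to -1.21, -0.55 to 0.21 and 2.36 to 3.11. Of values for single genes and classes, 910 kept their call, 66 lost it, 9 moved and 0 called values changed sign. The untested G2/M ratio of BPK 4NQO to PK 4NQO went from 0.17 to -0.07 with TMM scaling. No paired analysis was possible because only BPK 4NQO has 2 replicates. The tests with 1 library left out were not run, since no residual degree of freedom remains. Depth limits T cells, of which thinning left out 79 and 304 in the BPK 4NQO libraries, and neutrophils.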
